A study of Mus musculus with 20 samples.

Results

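Knee joints of mice injected with activated mesenchymal stromal cells (MSC), whichever agonist had been used, were compared with joints injected with unactivated MSC. The joints were chosen by their labels alone, as the 5 TLR3-MSC and 5 STING-MSC joints set together against the 5 MSC joints, which makes 15 of the 20 joints sequenced, with the 5 control joints as the reference level. All mice were male C57BL/6Nci animals, 12 weeks old at the start, and all carried destabilization of the medial meniscus of the right knee, a surgery that brings on osteoarthritis, so the control joints were also operated on. The donor cells came from the adipose tissue of male mice of the same age and was pooled before culture, so donors cannot be told apart. In the TLR3-MSC group the cells had been kept for 2 h with the double-stranded RNA mimic poly(I:C) at 10 µg/mL, in the STING-MSC group for the same time and at the same concentration with the cyclic dinucleotide 2′3′-cGAMP, and in the MSC group with neither. Each MSC-injected joint received 250000 cells at week 3 and again at week 5 after surgery, and control joints had the needle inserted with no cells. The methods place tissue collection at week 8, while another passage of the same text places it on the day after injection. Cartilage, synovium, capsule and subchondral bone were pooled into 1 RNA sample per joint, so fewer cells of a type and less RNA per cell cannot be told apart.

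TLR3 is an endosomal receptor for double-stranded RNA, and STING is the adaptor that the DNA sensor cGAS switches on through its cyclic dinucleotide product. Both pathways are known to lead through the kinase TBK1 to type I interferon and through NF-kB to inflammatory cytokines. Immediate-early genes such as Fos and Egr1 are transcribed within minutes of a stimulus, and C/EBPβ, encoded by Cebpb, is a transcription factor that cytokines induce in myeloid cells, fibroblasts and chondrocytes.

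The libraries held 27955496 to 52529972 reads on 14793 protein-coding genes, and MSC libraries, at 33771968 to 48847433 reads, were deeper in the median (42283680) than TLR3-MSC (33141873), STING-MSC (31917015) and control libraries (33230113). The part of depth in the results was not tested. Markers of the labelled tissue were present in every joint, with Acan, the cartilage proteoglycan, at 1089 to 12960 normalized counts and Ibsp, the bone sialoprotein, at 5749 to 28730, and the muscle gene Acta1 and the marrow genes S100a8 and Alas2 were also abundant. Prg4, the lubricin of synovium and superficial cartilage, ranged from 15890 to 542100, and tissue share and level per cell were not separated. MSC 5 stood apart, where 296 genes had the value 0 and 37 genes had 1 to 3 reads, and for 239 of the former every other joint was above 0. STING-MSC 5 came next, with 97 genes at 0, and for 47 of these every other joint was above 0. MSC 2 had the highest Fosb, a transcription factor gene of the immediate-early class, at 2531 normalized counts. Its collagen and matrix glycoprotein genes summed to 2923200 normalized counts, against 409480 to 1345800 in the other MSC joints. Erythroid genes summed to 1089300 in MSC 2 and 1018300 in MSC 5, against 1755200 to 2015700 in the other MSC joints. MSC 2 and MSC 5 were left out in turn and together, and the main results that changed are given below. The part of tissue share in those changes was not tested.

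Cebpb, Mcl1, Il1b and Plaur were lower in every joint given activated cells than in every joint given unactivated cells, and most of the activated joints were within or below the control range for these 4 genes. A limma fit over all 20 joints, on log2(normalized count + 1), gave 1 gene at a false discovery rate (FDR, Benjamini-Hochberg) of at most 0.05, Cebpb, which is 0.00676% of the genes tested. That count was 2 with edgeR, 44 with DESeq2 (18 higher, 26 lower) and 0 in a limma fit of the 15 MSC-injected joints alone. At an unadjusted p of at most 0.05, 423 genes (2.86%) were higher and 325 (2.2%) lower in activated joints, 5.06% in all, close to the share that a limit of 0.05 passes with no difference. With a fold change of at least 2 in addition, 44 genes (0.297%) were higher and 10 (0.0676%) lower. That split depended on the processing. Lower genes made up 18.5% of such calls here, 62.5% after quantile normalization (12 higher, 20 lower), 57.5% with edgeR (17 and 23) and 51.1% with DESeq2 (23 and 24). With the scaling unchanged and genes at 0 in any joint left out, they made up 55.6% (8 and 10). The median log2 fold change over all genes was 0.025. In 12 genes (0.0811%) all 10 activated joints lay below all 5 MSC joints, and in 9 genes (0.0608%) they lay above. With MSC 2 and MSC 5 both left out, a choice made after seeing the data, 7 genes passed the FDR limit, and 1493 higher (10.1%) and 984 lower genes (6.65%) had a p of at most 0.05.

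Cebpb, Mcl1 and Fosb, 3 early-response genes on which the results below turn, are shown by their promoters (RefSeq, GRCm38.p6), each running 5′ to 3′ on the gene's strand from 250 bases before to 50 after the annotated start. Capitals mark matches on either strand to any of 8 motifs, of which matches were found for the NF-kB motif GGNNTTTCC and for TGACGCAA, a variant of the cAMP response element, and the other 6 were AP-1 (TGACTCA), the cAMP response element (TGACGTCA), C/EBP (TTGCNNAA), the interferon-stimulated response element core (TTTCNNTTT), STAT (TTCNNNGAA) and the E-box (CACGTG).
Cebpb, chr2:167688665-167688964, plus strand: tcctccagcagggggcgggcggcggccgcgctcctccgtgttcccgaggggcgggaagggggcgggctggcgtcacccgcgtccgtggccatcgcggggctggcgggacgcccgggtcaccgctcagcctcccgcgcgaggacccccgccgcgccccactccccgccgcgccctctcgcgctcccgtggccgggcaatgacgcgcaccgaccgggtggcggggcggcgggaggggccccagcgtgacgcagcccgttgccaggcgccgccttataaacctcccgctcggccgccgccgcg
Mcl1, chr3:95658471-95658770, plus strand: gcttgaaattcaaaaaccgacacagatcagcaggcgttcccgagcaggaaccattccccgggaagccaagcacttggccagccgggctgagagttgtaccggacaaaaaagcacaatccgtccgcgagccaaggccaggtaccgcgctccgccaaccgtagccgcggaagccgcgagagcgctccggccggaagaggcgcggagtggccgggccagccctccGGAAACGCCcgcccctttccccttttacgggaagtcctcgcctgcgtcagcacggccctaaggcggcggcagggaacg
Fosb, chr7:19309996-19310295, minus strand: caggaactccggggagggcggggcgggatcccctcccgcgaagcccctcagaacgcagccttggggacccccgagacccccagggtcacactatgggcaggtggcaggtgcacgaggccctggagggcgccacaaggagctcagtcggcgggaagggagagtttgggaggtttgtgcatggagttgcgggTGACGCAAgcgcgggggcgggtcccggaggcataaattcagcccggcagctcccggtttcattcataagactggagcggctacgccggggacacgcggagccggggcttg
The Mcl1 match began at position -28 from the start and the Fosb match at position -60, and none of the 8 motifs was found in the Cebpb window. The NF-kB motif stood in 5.82% of the 32851 promoters of this length and TGACGCAA in 0.49%. A match is a description of letters and not a binding site.

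Cebpb (ENSMUSG00000056501, GRCm39 chr2:167530835-167532339) had 2054, 2052, 3133, 3507 and 2114 normalized counts in the MSC joints. It had 1394, 1280.0, 1586, 1481 and 1439.9 in TLR3-MSC joints and 1569.5, 1489, 1591, 1557 and 1264 in STING-MSC joints. The control joints had 1552, 1720.4, 1575, 1715 and 1595. Every activated joint lay below every MSC joint, 4 of the 10 fell within the control range and the other 6 below it, and MSC 3 and MSC 4 were the highest of all. The log2 fold change of activated against MSC joints was -0.78 (SE 0.11, 95% interval -1.01 to -0.54, limma FDR = 0.0205), a level 1.71-fold higher in MSC joints, and the exact two-sided permutation p over 10 joints against 5 was 0.000666, the smallest that 3003 arrangements allow. The values against MSC were -0.80 for TLR3-MSC and -0.75 for STING-MSC, 2 contrasts that share the MSC joints, and STING-MSC minus TLR3-MSC was 0.055 (95% interval -0.22 to 0.33). The FDR rose to 0.135 without MSC 3 and to 0.26 in a fit of the 15 MSC-injected joints alone, with log2 fold changes of -0.69 and -0.78. Cebpb overlaps Peds1 on the other strand and strand use in counting is not stated, while Peds1 itself differed by -0.18 (limma p = 0.0157, exact permutation p = 0.0153).

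Mcl1 (ENSMUSG00000038612, GRCm39 chr3:95566099-95570488), an anti-apoptotic member of the BCL2 family, had 16584, 18119, 19638, 18671 and 16813 normalized counts in MSC joints. It had 13399, 14205, 13722, 14471 and 15678 in TLR3-MSC joints and 13381, 13172, 14557, 12974 and 14029 in STING-MSC joints. The control joints had 14264, 13462, 14294, 14475 and 12334. The activated and MSC joints did not overlap, and 8 of 10 activated joints lay within the control range. The log2 fold change was -0.36 (SE 0.062, limma FDR = 0.0986), with an FDR of 0.0393 in edgeR and 1.68e-07 in DESeq2. TLR3-MSC (-0.33) and STING-MSC (-0.40) were on the same side of MSC.

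Il1b, the gene of interleukin-1β, had 932, 775, 1639, 1349 and 726 normalized counts in MSC joints. It had 576, 531, 459.8, 711 and 509 in TLR3-MSC joints, 515, 542, 679.9, 542 and 673 in STING-MSC joints and 640.4, 471, 456, 487 and 693 in control joints. All 10 activated joints were below all 5 MSC joints, and 9 of them were within the control range. Il1b had a log2 fold change of -0.86 (95% interval -1.21 to -0.50, limma p = 7.87e-05, exact permutation p = 0.000666, FDR = 0.225), and the interval of STING-MSC minus TLR3-MSC ran from -0.32 to 0.50. Il1b overlaps the antisense gene Il1bos, and without stranded counts their reads cannot be told apart.

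Plaur, which encodes the urokinase receptor that localizes plasminogen activation at the cell surface, had 3155, 2584, 3962, 3898 and 2635 normalized counts in MSC joints. It had 2094, 2098, 2205, 2526 and 2389 in TLR3-MSC joints, 2274, 1651, 2427, 2256 and 2442 in STING-MSC joints and 2439, 2068, 2065, 2099 and 1820.0 in control joints. The activated joints again lay wholly below the MSC joints, and 7 of 10 were within the control range. Plaur had a log2 fold change of -0.52 (95% interval -0.76 to -0.29, limma p = 0.000171, exact permutation p = 0.000666, FDR = 0.225). It was the only member of 27 matrix proteases and inhibitors past the limit, at 1 lower and 0 higher.

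**Figure D1:**
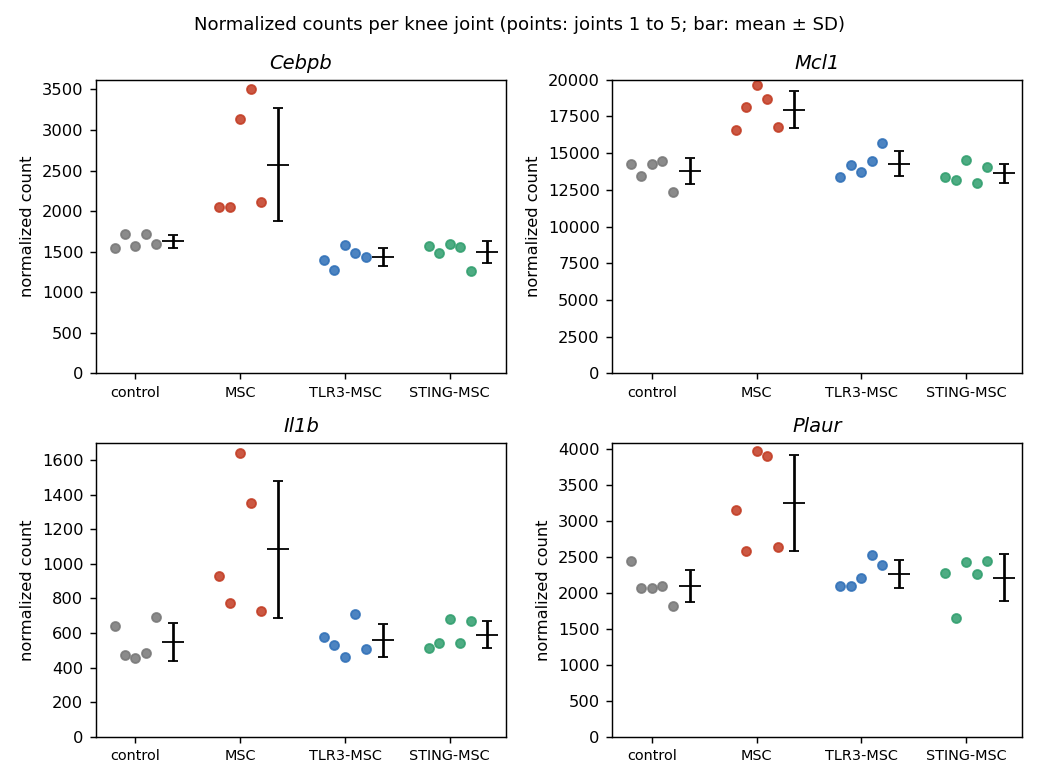
Normalized count (linear axis from 0) of Cebpb, Mcl1, Il1b and Plaur in each of the 20 joints, with the group mean ± SD beside the points (n = 5 joints per group). In all 4 genes the 5 MSC joints lie above the 10 activated joints, for example 2584 to 3962 against 1651 to 2526 for Plaur.

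The other 8 of the 12 genes with all activated joints lower were Lcat, Afap1l2, Epha2, Ifitm5, Tbpl1, Entr1, Zfp280c and Tm6sf2. They were named after their values were seen, apart from Ifitm5, the member of its list with the smallest p. Genes picked only because their groups do not overlap are described with no test and no interval. Lcat, which esterifies cholesterol on lipoproteins, was at 29.5 to 55.1 normalized counts in activated joints, 58.02 to 93.5 in MSC joints and 44.8 to 68.7 in control joints, so 6 of 10 activated joints were below every control joint too. Its log2 fold change was -0.77 against MSC and -0.46 against control. Ifitm5, a membrane protein of bone-forming osteoblasts, was at 7.50 to 20.98 in activated and 26.8 to 38.8 in MSC joints, but all 10 activated joints lay within the wide control range of 7.41 to 32.9.

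The 9 genes with all activated joints higher were Tab1, Mcat, Sik2, Nsun3, Trp53bp1, Usp34, Wdr89, Pacs2 and Parg, with log2 fold changes of 0.13 for Parg to 0.53 for Wdr89. Tab1, the partner that activates the kinase TAK1 downstream of cytokine and Toll-like receptors, was at 1111 to 1476 normalized counts in activated joints and 938 to 1041 in MSC joints, and 8 of 10 activated joints lay within the control range of 1049 to 1326. Its log2 fold change was 0.34, and MSC minus control was -0.28. Sik2, a salt-inducible kinase that holds CREB coactivators in the cytoplasm, had 863, 840.2, 942, 928 and 761 normalized counts in TLR3-MSC joints and 825, 773, 742, 758 and 739 in STING-MSC joints. It had 715, 704, 655, 527 and 603 in MSC joints and 687, 557, 573, 685 and 631 in control joints. Lcat, Tab1, Sik2, Ciart, Dbp and Serpinf2 each overlap a gene on the other strand and Mkrn3 1 on its own strand, whose reads may be mixed in. For Sik2 the MSC joints overlapped the control joints and all 10 activated joints lay above both. The log2 fold change of Sik2 was 0.35 against MSC and 0.38 against control.

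Of the 33 gene lists, those of immediate-early, C/EBP, NF-kB, cytokine and heat shock genes had the most members lower in activated joints, and the clock list had members in both directions. Each list is described by how many members had an unadjusted p no larger than 0.05, and no test was made on a list. With all joints, these counts are to be read against 2.86% of all genes higher and 2.2% lower. The shares of all genes were 4.26% and 3.14% without MSC 2, and 4.21% and 3.13% without MSC 5. Without both they were 10.1% and 6.65%. Across the fits with 1 joint left out, 357 to 630 of the 14793 genes were higher and 258 to 465 lower.

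**Figure D2:**
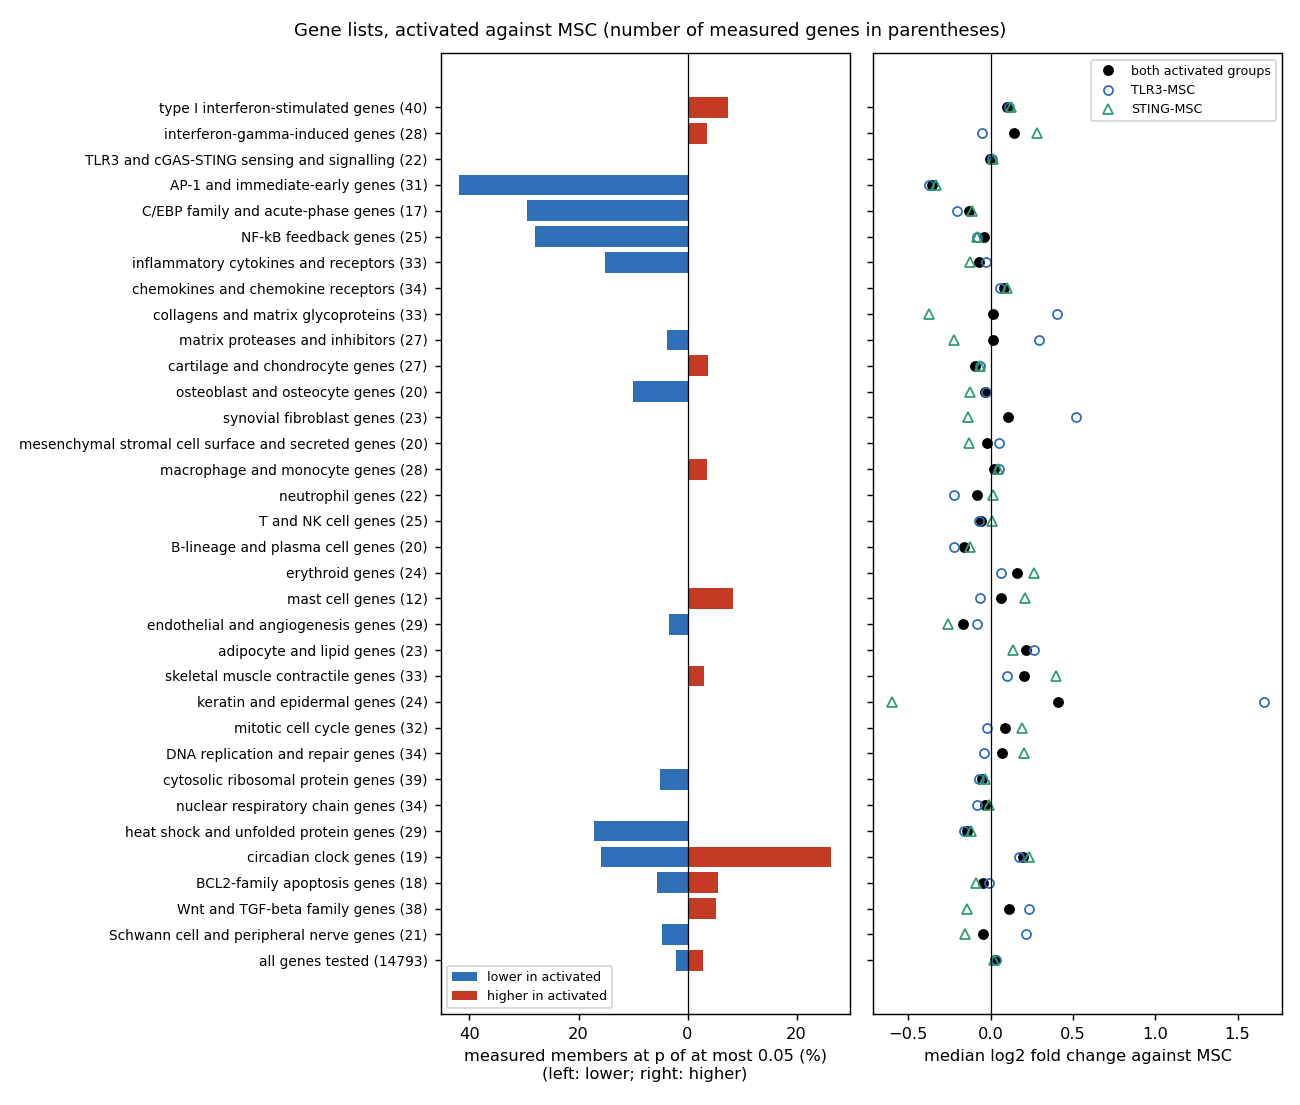
For each list (number of measured genes in parentheses), the percent of members at a limma p of at most 0.05 that were lower (bars to the left) or higher (to the right) in the 10 activated joints than in the 5 MSC joints, and the median log2 fold change for both activated groups (black), TLR3-MSC (blue circles) and STING-MSC (green triangles). Lower members reach 41.9% in the AP-1 and immediate-early list against 2.2% of all genes, and TLR3-MSC and STING-MSC lie on opposite sides of 0 for collagens, proteases, synovial and keratin genes. The lists were chosen with earlier results of these data known.

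Among 31 measured AP-1 and immediate-early genes, 13 were lower in activated joints and 0 higher (41.9%), with a median log2 fold change of -0.35 against 0.025 over all genes. The 13 were Fosl2, Fos, Fosb, Zfp36, Dusp1, Ccn1, Junb, Egr3, Atf3, Arc, Egr2, Egr1 and Nr4a2. Without MSC 2 the count was 7, without MSC 3 it was 7, and without MSC 2 and MSC 5 it was 10, with 1 higher. The median was -0.37 in TLR3-MSC and -0.33 in STING-MSC, and 2 of the 31 differed between them, where 2.57% of all genes did. Against control joints, 9 of the 31 were lower and 1 higher in activated joints (7.98% of all genes differed in either direction), and 5 were higher and 0 lower in MSC joints (8.55%).

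Fos, a subunit of the AP-1 transcription factor, had 665, 1704, 1609.8, 900.0 and 737 normalized counts in MSC joints. It had 364, 892, 969, 254 and 729 in TLR3-MSC joints, 539, 346, 538, 237 and 248 in STING-MSC joints and 797, 1348, 1512, 1132 and 665 in control joints. The STING-MSC joints were all below every MSC and every control joint, whereas 3 TLR3-MSC joints overlapped both groups. Fos had a log2 fold change of -1.20 (95% interval -1.90 to -0.51, limma p = 0.00186, FDR = 0.529, exact permutation p = 0.0133), and MSC and control joints differed by -0.0032.

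Fosb, another AP-1 subunit, had 236, 2531, 795, 182 and 241 normalized counts in MSC joints. It had 69.1, 199.7, 351, 111 and 393 in TLR3-MSC joints, 126, 95.4, 133, 83.7 and 72.9 in STING-MSC joints and 228, 162, 215, 286 and 149.7 in control joints. MSC 2 exceeded all other joints and MSC 3 was second, while MSC 1, MSC 4 and MSC 5 lay within the control range. Fosb had a log2 fold change of -1.76 (95% interval -2.82 to -0.70, limma p = 0.00258, exact permutation p = 0.022, FDR = 0.57), which was -1.15 without MSC 2 (p = 0.0119).

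Fosl2, which encodes Fra-2 and had the smallest p of the list, was at 4032, 6065, 7515, 5786 and 4176 normalized counts in MSC joints. It was at 3546, 3763, 3716, 3563 and 4816 in TLR3-MSC joints, 3449, 2647, 3549, 2909 and 3049.9 in STING-MSC joints and 3327, 3223, 4050.3, 5012 and 2324 in control joints. TLR3-MSC 5 reached into the MSC range and the other 9 activated joints lay below it, and all 10 were within the control range. Fosl2 had a log2 fold change of -0.63 (95% interval -0.97 to -0.30, limma p = 0.00082, exact permutation p = 0.00533, FDR = 0.399).

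Members differed in where the control joints stood. Atf3, a stress-induced transcription factor, averaged 358 normalized counts in activated, 619 in MSC and 334 in control joints. Ccn1, a matricellular protein, averaged 1228, 2092 and 2785 in that order, and Egr1, a zinc finger transcription factor, 1462, 2243 and 3469. Activated joints were thus near control joints for Atf3 (log2 difference 0.11, 95% interval -0.48 to 0.70) and below them for Ccn1 (-1.16, 95% interval -1.81 to -0.52) and Egr1 (-1.33, 95% interval -2.02 to -0.64). Egr2, also a regulator of myelination and the member of the 21 Schwann cell and nerve genes with the smallest p (1 lower, 0 higher), was at 64.3 to 256 in activated and 129 to 306 in MSC joints, with a log2 fold change of -0.72 (limma p = 0.0383, exact permutation p = 0.036, 0.103 without MSC 2).

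Of 17 C/EBP and acute-phase genes, 5 were lower and 0 higher: Cebpb, Cebpg, Trib1, Cebpd and Serpina3g, and the median was -0.13. The count was 5 or 6 with any 1 joint left out, and 8 lower and 1 higher without MSC 2 and MSC 5. Against control joints, 9 of the 17 were higher and 0 lower in MSC joints (median 0.39, with 8.55% of all genes differing in either direction). In activated joints 7 were higher and 0 lower (median 0.22, with 7.98% of all genes differing). Cebpd, the relative of Cebpb that rises in the acute-phase response, had 3132, 2935, 3255, 3306 and 2948 normalized counts in MSC joints. It had 2222, 2094, 2384, 3004 and 2586 in TLR3-MSC joints, 2523, 1847, 2897, 2729.9 and 2706 in STING-MSC joints and 2342, 2213, 1982, 1921 and 1508 in control joints. The MSC joints were tightly grouped and above all but TLR3-MSC 4 of the activated joints, and the activated joints were intermediate. Cebpd had a log2 fold change of -0.33 against MSC (95% interval -0.56 to -0.099, limma p = 0.00757, exact permutation p = 0.00266, FDR = 0.714) and 0.33 against control (95% interval 0.096 to 0.56). Trib1, a pseudokinase that directs C/EBPα for degradation, averaged 958 in activated, 1255 in MSC and 961 in control joints.

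Of 25 NF-kB feedback genes, 7 were lower and 0 higher: Mcl1, Bcl3, Csrnp1, Nfkbia, Rel, Nfkb2 and Nfkbiz, with a list median of -0.044. The count fell to 4 without MSC 3 and was 9 without MSC 2 and MSC 5. Nfkbia, the inhibitor IκBα that NF-kB itself induces, was at 1663 to 2448 normalized counts in activated joints, 2163 to 3054 in MSC joints and 1864 to 2251 in control joints. Its log2 fold change was -0.36 (limma p = 0.00161, exact permutation p = 0.00333), and the activated joints differed from control joints by -0.0001 (95% interval -0.20 to 0.20). Bcl3, a nuclear IκB protein, changed by -0.67 (limma p = 0.000273, exact permutation p = 0.002), with 9 of 10 activated joints below every MSC joint.

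Of 33 inflammatory cytokines and receptors, 5 were lower and 0 higher: Il1b, Osm, Il10ra, Tnfrsf1b and Socs3. The count was 3 without MSC 1, 3 without MSC 3, and 8 lower and 2 higher without MSC 2 and MSC 5. Oncostatin M (Osm), a cytokine of the interleukin-6 family, was at 285, 204, 542, 431 and 319 normalized counts in MSC joints. It was at 228, 158, 193, 253 and 193 in TLR3-MSC joints, 194, 149, 239.8, 215 and 271 in STING-MSC joints and 175, 242, 205, 152 and 195 in control joints. MSC 2 was within the activated range and the other 4 MSC joints were above it. Osm had a log2 fold change of -0.71 (95% interval -1.11 to -0.30, limma p = 0.00167, exact permutation p = 0.00799, FDR = 0.524).

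Of 34 chemokines and chemokine receptors, 0 were lower and 0 higher in the limma fit (median 0.081), while edgeR and DESeq2 each gave 1 lower. Of 22 neutrophil genes 0 passed, with summed levels of 645830 to 1063900 normalized counts in activated, 673140 to 1142700 in MSC and 485560 to 849400 in control joints, and without MSC 2 and MSC 5 the neutrophil list had 10 members lower in activated joints. Against control joints, 15 of the 22 were higher in MSC joints, 12 were higher in activated joints, and 0 were lower in either. Of all genes, 8.55% differed from control in MSC joints and 7.98% in activated joints, in either direction. Of 28 macrophage and monocyte genes 1 was higher in the limma fit, Timd4, and 0 by edgeR. Without MSC 5 the list had 0 higher and 1 lower, and without MSC 2 and MSC 5 it had 0 higher and 3 lower. The part of leukocyte content in the lower inflammatory transcripts was not tested.

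Genes that sense the agonists were examined next. Of 22 genes of TLR3 and cGAS-STING sensing and signalling 0 were higher and 0 lower, also by edgeR and DESeq2, with a median of -0.0027. Tlr3 was at 104 to 227 normalized counts in activated, 114 to 263 in MSC and 159.8 to 295 in control joints (log2 fold change -0.14, 95% interval -0.57 to 0.30). Sting1 was at 725 to 1192, 792 to 1123 and 787 to 1082 (-0.15, interval -0.39 to 0.095), and Cgas at 252 to 411, 174 to 409.9 and 236 to 322 (0.089, interval -0.27 to 0.45). The groups overlapped for all 3. Ifnb1, the gene of interferon-β, was not among the genes analysed.

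Of 40 type I interferon-stimulated genes, 3 were higher and 0 lower: Ifit3b, Ifit1 and Ifit3, which encode RNA-binding proteins of the antiviral response and have similar sequences, so that reads can be shared between them. The list median was 0.099, with 0.11 in TLR3-MSC and 0.12 in STING-MSC, and 35 of 40 members were above 0. That median was 0.037 without MSC 2 and 0.029 without MSC 5, and it turned to -0.14 without both, when 30 of 40 members were below 0. Ifit3b had 126, 66.5, 90.5, 117 and 146 normalized counts in MSC joints. It had 158, 163, 235, 124 and 168 in TLR3-MSC joints, 167, 213, 226, 144 and 108.4 in STING-MSC joints and 159, 209, 145, 148 and 202 in control joints. Of the MSC joints 4 lay below every control joint, the activated joints reached below and above the control range, and 7 of 10 exceeded every MSC joint. Ifit3b had a log2 fold change of 0.65 (95% interval 0.24 to 1.07, limma p = 0.00395, exact permutation p = 0.0127, FDR = 0.618). The count of 3 was 1 without MSC 2, 1 without MSC 5, 1 without TLR3-MSC 1, 1 after quantile normalization and 6 without MSC 1.

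Of 28 interferon-γ-induced genes, 1 was higher and 0 lower. It was F830016B08Rik, a gene of the interferon-induced GTPase family, at 401 to 1165 normalized counts in TLR3-MSC joints, 573 to 1593 in STING-MSC joints, 222 to 665 in MSC joints and 490.1 to 844 in control joints. The log2 fold change was 0.97 (95% interval 0.38 to 1.56, limma p = 0.00281, exact permutation p = 0.018, FDR = 0.57), and 6 of 10 activated joints exceeded every MSC joint. The list median against MSC was -0.054 in TLR3-MSC and 0.28 in STING-MSC, on opposite sides of 0. STING-MSC 3 stood apart, with a summed level of 53323 normalized counts against 17469 to 23346 in the other activated joints.

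**Figure D3:**
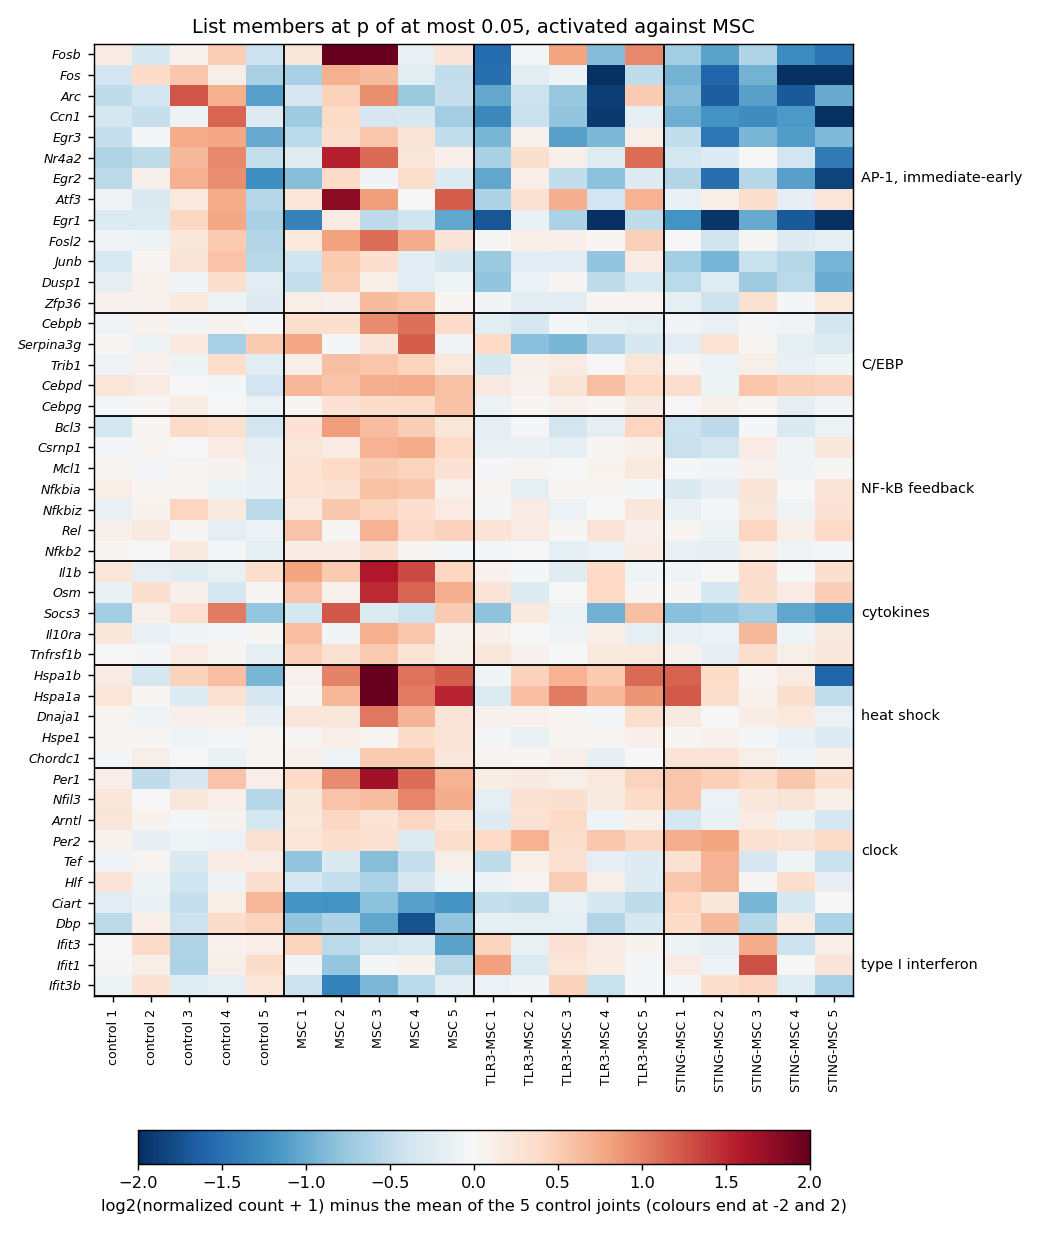
Members of 7 lists with a limma p of at most 0.05 for activated against MSC joints (rows) in all 20 joints (columns), coloured by log2(normalized count + 1) minus the mean of the 5 control joints, with colours ending at -2 and 2. C/EBP, NF-kB and cytokine rows are red mostly in the MSC columns, with Cebpd also red in most activated columns and Socs3 blue in many, whereas Fos, Ccn1 and Egr1 are blue in most activated columns and mixed in MSC and control columns.

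Of 29 heat shock and unfolded protein genes, 5 were lower and 0 higher: Dnaja1, Hspe1, Hspa1b, Hspa1a and Chordc1. This count ran from 2 to 10 with 1 joint left out, with 10 without MSC 2 and 2 without MSC 3, MSC 4, TLR3-MSC 2, TLR3-MSC 4 or STING-MSC 5, and was 12 without MSC 2 and MSC 5. Dnaja1, a co-chaperone of Hsp70, had 2486, 2459, 4357, 3392 and 2508 normalized counts in MSC joints. It had 2236, 2234, 2189, 2039 and 2673 in TLR3-MSC joints, 2379.9, 2110.0, 2325, 2436 and 1951 in STING-MSC joints and 2191, 1986, 2256, 2249 and 1874 in control joints. TLR3-MSC 5 alone among activated joints reached the MSC range, and MSC 3 and MSC 4 were highest. Dnaja1 had a log2 fold change of -0.40 (95% interval -0.64 to -0.16, limma p = 0.00274, exact permutation p = 0.00866, FDR = 0.57). Hspa1a and Hspa1b are near-identical copies of inducible Hsp70 and their reads may be split between them.

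Of 19 circadian clock genes, 5 were higher (Ciart, Dbp, Hlf, Per2 and Tef) and 3 lower (Per1, Arntl and Nfil3) in activated joints. Dbp, Hlf and Tef encode transcription factors of the PAR bZIP family that activate D-box genes, and Nfil3 encodes the repressor of the same sites. The clock is known to move these transcripts over the day, and the hour of collection is not given in the sources used here. Higher members numbered 3 without MSC 4, 8 without MSC 5 and 10 without MSC 2 and MSC 5, and lower members 3 or 4 with any 1 joint left out.

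Ciart, a repressor of the CLOCK and ARNTL complex, had 41.6, 41.3, 53.7, 44.5 and 41.7 normalized counts in MSC joints. It had 68.3, 67.1, 85.8, 76.6 and 66.7 in TLR3-MSC joints, 129, 113, 50.1, 74.96 and 94.98 in STING-MSC joints and 82.6, 86.99, 69.1, 105 and 152 in control joints. All activated joints but STING-MSC 3 exceeded every MSC joint, and all 5 MSC joints were below every control joint. Ciart had a log2 fold change of 0.83 (95% interval 0.41 to 1.25, limma p = 0.000534, exact permutation p = 0.00133, FDR = 0.304, DESeq2 FDR = 0.0257).

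Dbp had 915, 1032, 769, 474 and 914 normalized counts in MSC joints. It had 1392, 1392, 1385, 1061 and 1266 in TLR3-MSC joints, 2056, 2494, 1069.9, 1763 and 1019.8 in STING-MSC joints and 1105, 1748, 1175, 2048 and 2160.2 in control joints. STING-MSC 5 fell just under MSC 2, and the other 9 activated joints lay above every MSC joint. Dbp had a log2 fold change of 0.85 (95% interval 0.38 to 1.31, limma p = 0.0012, exact permutation p = 0.00133), and MSC minus control was -0.998 (95% interval -1.54 to -0.46).

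Per1, a core clock repressor that glucocorticoids and cAMP also induce, moved the other way, with 1540.1, 2255, 3739, 2545 and 1892 normalized counts in MSC joints. It had 1302, 1333, 1276, 1364 and 1594 in TLR3-MSC joints, 1727, 1627, 1537, 1708 and 1477 in STING-MSC joints and 1288, 823, 934, 1733 and 1293 in control joints. MSC 1 lay among the activated joints and the other 4 MSC joints above them. Per1 had a log2 fold change of -0.62 (95% interval -0.98 to -0.26, limma p = 0.00176, exact permutation p = 0.004). Per2, its paralogue, was higher in activated joints, at 642 normalized counts on average against 529 in MSC and 458 in control joints, and it differed from control by 0.49 (95% interval 0.24 to 0.73).

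**Figure D4:**
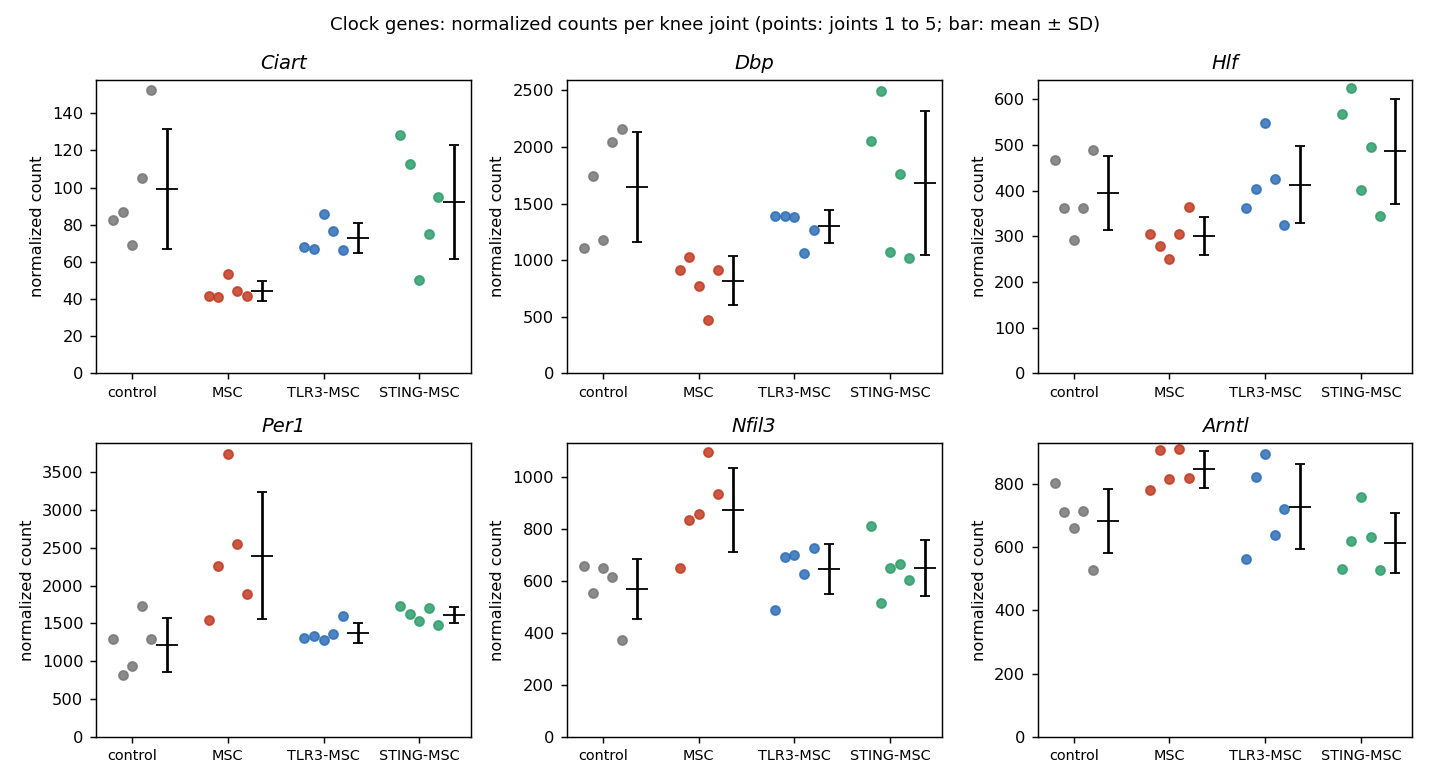
Normalized count (linear axis from 0) of 6 clock genes in each joint, with the group mean ± SD beside the points (n = 5 joints per group). MSC joints are lowest for Ciart (41.3 to 53.7) and Dbp (474 to 1032) and highest on average for Per1, Nfil3 and Arntl.

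The 44 genes higher past p and fold rested largely on MSC 5, in which 35 of them were listed at 0, 32 of these at 0 in no other joint. The 35 had means of 10.3 to 44.8 normalized counts in the other 19 joints. Their median log2 fold change was 1.35 with all joints and 0.601 without MSC 5, and 9 of the 35 then had a p of at most 0.05. Of all 44, 8 stayed past both limits without MSC 5, when 26 genes passed in all, and leaving out MSC 2 gave 102.

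**Figure D5:**
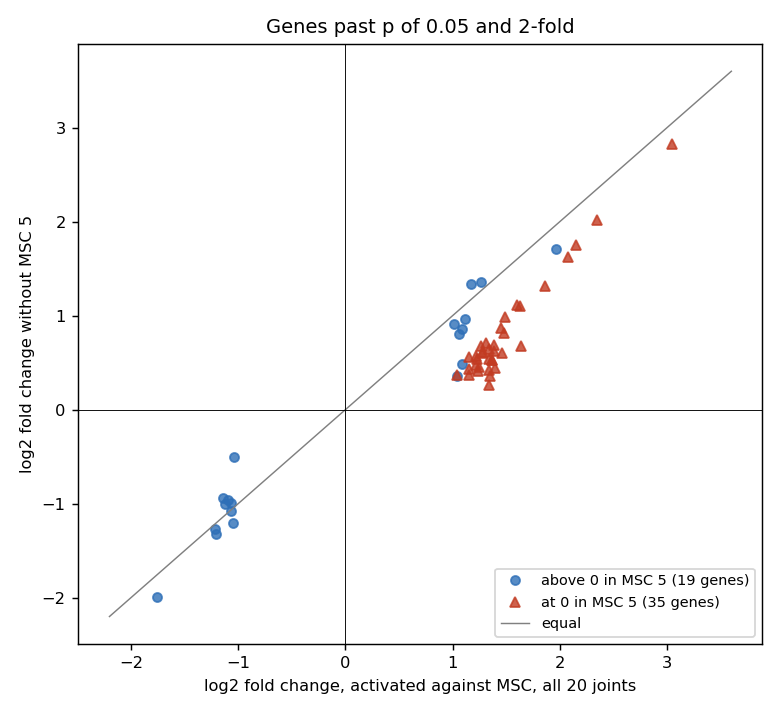
Log2 fold change of activated against MSC joints with all 20 joints (horizontal) and without MSC 5 (vertical) for the 54 genes past a p of 0.05 and 2-fold. The 35 genes at 0 in MSC 5 (triangles) lie below the line of equality, with medians of 1.35 and 0.601 on the axes, and of the 10 lower genes Gabrb1 moves most, from -1.04 to -0.50.

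Of the 9 higher genes detected in MSC 5, the 6 with the smallest p were Mkrn3, Prelid3a, Gria1, Fgfbp1, Mrgprb1 and Timd4, and none passed the FDR limit (0.366 to 0.86), with 0 at that limit also by edgeR and DESeq2 among these 6. Mkrn3, an imprinted RING finger gene known for its role in the timing of puberty, had 11.4, 13.5, 5.97, 11.5 and 4.07 normalized counts in MSC joints. It had 25.3, 18.6, 28.2, 15.5 and 26.00 in TLR3-MSC joints, 14.4, 20.8, 19.8, 16.2 and 13.4 in STING-MSC joints and 16.9, 12.1, 13.8, 23.7 and 12.2 in control joints. STING-MSC 5 lay just below MSC 2, and the other 9 activated joints were above every MSC joint. Its fold was 2.12 (log2 1.09, 95% interval 0.52 to 1.65, limma p = 0.000694, exact permutation p = 0.00133).

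Fgfbp1, a carrier that releases fibroblast growth factors from matrix, had 29.5, 31.99, 28.9, 39.6 and 22.4 normalized counts in MSC joints. It had 41.3, 76.8, 75.1, 91.1 and 16.95 in TLR3-MSC joints, 69.5, 121, 51.1, 92.5 and 52.8 in STING-MSC joints and 53.99, 71.3, 32.7, 74.9 and 122 in control joints. TLR3-MSC 5 was the lowest of all joints, the other 9 activated joints exceeded every MSC joint, and 9 of 10 were within the control range. Its fold was 2.02 (log2 1.02, 95% interval 0.29 to 1.75, limma p = 0.00897, exact permutation p = 0.0186).

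Timd4, a phosphatidylserine receptor of tissue-resident macrophages, had 233, 52.2, 117, 64.3 and 58.02 normalized counts in MSC joints. It had 260.4, 143, 248, 253 and 61.03 in TLR3-MSC joints, 152, 191, 408, 214 and 192 in STING-MSC joints and 115, 121, 42.7, 149 and 392 in control joints. Of the activated joints 4 exceeded every MSC joint, MSC 1 lay among the activated joints, and the control joints overlapped both groups. Timd4 had a log2 fold change of 1.11 (95% interval 0.16 to 2.07, limma p = 0.024, exact permutation p = 0.026), with p = 0.0737 without MSC 2 and 0.0672 without MSC 5.

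The remaining 3 were low or overlapping. Prelid3a, a member of a family of mitochondrial lipid carriers, was at 25.9 to 53.9 normalized counts in activated and 9.16 to 37.9 in MSC joints (log2 fold change 1.06, limma p = 0.0012, exact permutation p = 0.004). Gria1, an AMPA receptor subunit, was at 4.52 to 35.5 against 0 to 10.9 (1.96, limma p = 0.00232, exact permutation p = 0.0147), and Mrgprb1, a Mas-related receptor of the mast cell list, at 12.4 to 48.3 against 0.824 to 24.4 (1.26, limma p = 0.0206, exact permutation p = 0.0306, 0.0596 by edgeR). Without MSC 4 the value for Mrgprb1 was 0.65, no longer past the limit. Of the 12 mast cell genes measured Mrgprb1 was the only one past the limit in the limma fit of all joints. The list had 1 higher and 1 lower by edgeR, 2 higher and 1 lower by DESeq2, and 4 higher and 1 lower without MSC 2 and MSC 5. The summed level of the list was 5903 to 8719 in activated and 5706 to 10197 in MSC joints. Tph1, which makes serotonin's precursor in mast and other non-neuronal cells, was at 21.2 to 247 in activated and 12.7 to 51.1 in MSC joints, with a log2 fold change of 0.88 (limma p = 0.0615, exact permutation p = 0.0793), while edgeR gave 1.02 (p = 0.0438) and DESeq2 1.03 (p = 0.0227). Tph1 also passed p of 0.05 by limma without MSC 3, MSC 4, STING-MSC 3 or STING-MSC 4.

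Besides Fos and Fosb, the lower genes past p and fold with the smallest p were Gm6525, Fcrl6, Serpinf2 and Cyp26a1, all at low levels. Serpinf2, the plasmin inhibitor α2-antiplasmin, had 29.5, 35.4, 74.6, 49.5 and 36.6 normalized counts in MSC joints. It had 30.3, 25.1, 6.70, 18.6 and 4.52 in TLR3-MSC joints, 34.1, 14.7, 33.4, 21.2 and 18.2 in STING-MSC joints and 21.2, 4.83, 15.1, 8.22 and 8.16 in control joints. Every MSC joint was above every control joint, and the activated joints lay between and across both. Serpinf2 had a log2 fold change of -1.22 (95% interval -2.07 to -0.36, limma p = 0.00792, exact permutation p = 0.004).

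Cyp26a1, which degrades retinoic acid, was at 2.62 to 11.5 normalized counts in activated, 10.1 to 23.1 in MSC and 2.74 to 14.5 in control joints (log2 fold change -1.06, limma p = 0.00812, exact permutation p = 0.00133), with 9 of 10 activated joints below every MSC joint. Fcrl6, an Fc receptor-like protein of lymphocytes, was at 1.34 to 11.5, 8.24 to 27.5 and 3.77 to 11.6 (-1.14, limma p = 0.00784, exact permutation p = 0.0133). Gm6525, a predicted gene inside Trim2 on the other strand, averaged 15.1 ± 6.27 normalized counts (SD, n = 10) in activated, 33.3 ± 17.4 (n = 5) in MSC and 13.7 ± 3.87 (n = 5) in control joints (log2 fold change -1.05, limma p = 0.00263, exact permutation p = 0.0147).

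Among genes of the structural tissues of the joint, few passed the limit. Of 33 collagens and matrix glycoproteins, 23 synovial fibroblast genes and 20 MSC surface and secreted genes, 0 were higher and 0 lower in the limma, edgeR and DESeq2 fits. Without MSC 2 and MSC 5, however, 10 synovial genes were higher and 1 lower, 5 collagen and matrix genes were higher and 1 lower (median 0.73 against 0.014 with all joints), 2 MSC surface and secreted genes were higher and 2 lower, and 5 cartilage genes were higher and 0 lower. Of 27 cartilage genes 1 was higher, Matn1, which encodes the cartilage matrix protein matrilin-1, at 1.34 to 53.9 normalized counts in activated and 0 to 14.1 in MSC joints (log2 fold change 1.60, limma p = 0.0433, exact permutation p = 0.0686, 0.155 without MSC 5). Of 20 osteoblast and osteocyte genes 2 were lower, Ifitm5 (log2 fold change -0.98, limma p = 0.00446) and Tnfsf11 (-0.67, limma p = 0.0237, exact permutation p = 0.0486), the latter encoding the osteoclast-inducing cytokine RANKL.

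Vegfc, a growth factor of lymphatic vessels, was the 1 lower member of 29 endothelial genes, at 212 to 357 normalized counts in activated and 295 to 412 in MSC joints (log2 fold change -0.39, limma p = 0.00423, exact permutation p = 0.00533), with 8 of 10 activated joints below every MSC joint. Set against control joints, 12 of the 29 were lower and 0 higher in activated joints (median -0.38, with 7.98% of all genes differing in either direction). In MSC joints 1 was lower and 1 higher than in control joints (median -0.23, with 8.55% of all genes differing). Of 38 Wnt and TGF-β genes, Wnt10b and Wnt2b, both Wnt ligands, were higher and 0 lower, with Wnt10b at 152 to 363 against 65.9 to 274 (0.58, limma p = 0.0362, exact permutation p = 0.0786, 0.0874 without MSC 5). Wnt10b was at 0.34 without MSC 4. Wnt2b was listed at 0 in MSC 5, and its log2 fold change of 1.35 was 0.359 without that joint. By edgeR and DESeq2 the list had 0 members higher and 0 lower, and without MSC 2 and MSC 5 it had 12 higher and 2 lower. Mybph, a myosin-binding protein, was the 1 higher member of 33 muscle genes (0.78, limma p = 0.0248, exact permutation p = 0.0753), with 8 higher without MSC 5. The summed muscle level spanned 1639400 to 5257600 normalized counts in activated, 1314800 to 4192300 in MSC and 2491700 to 3592100 in control joints, and its part in these results was not tested.

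Among housekeeping lists, 2 of 39 ribosomal protein genes were lower, Rplp2 (-0.15, limma p = 0.0194, exact permutation p = 0.016) and Rpl27 (-0.22, limma p = 0.0444, exact permutation p = 0.0559), and 1 of 18 BCL2-family genes besides Mcl1 passed, Bcl2l13, which was higher (0.20, limma p = 0.0234, exact permutation p = 0.0147). The lists of T and NK cell (25 genes), B-lineage (20), erythroid (24), adipocyte (23), keratin (24), mitotic (32), DNA replication (34) and nuclear respiratory chain genes (34) had 0 members past the limit in either direction in the limma fit. By DESeq2 1 keratin gene was lower. Without MSC 2 and MSC 5 the B-lineage list had 9 members lower and the adipocyte list 6 higher, which was 4 higher without MSC 5 alone. Leaving out both joints turned the median from 0.084 to -0.24 for mitotic, from 0.071 to -0.26 for DNA replication and from 0.16 to -0.20 for erythroid genes. All 32 mitotic genes were above 0 with all joints, and all 32 were below 0 without both.

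The agonist groups were also set against each other. STING-MSC minus TLR3-MSC gave 0 genes at the FDR limit by limma, with 380 at a p of at most 0.05, 0 by edgeR and 3 by DESeq2. For collagens the medians against MSC were 0.40 in TLR3-MSC and -0.38 in STING-MSC, and for keratin genes 1.66 and -0.60. Of the 24 keratin genes 9 differed between the agonist groups at a p of at most 0.05, where 2.57% of all genes did. The summed keratin level was 45997 normalized counts in TLR3-MSC 4 and 1473 to 4703 in the other 9 activated joints. It was also high in control 1, at 15646 against 1395 to 3074 in the other control joints, and was 1420 to 3790 in MSC joints. Tnfaip6, the anti-inflammatory hyaluronan-binding protein TSG-6 that MSC are known to secrete, had 97.8, 1115, 162, 92.2 and 3712 normalized counts in TLR3-MSC joints and 113, 77.1, 128, 44.98 and 47.97 in STING-MSC joints. It had 99.9, 2555, 172, 79.1 and 235 in MSC joints and 139, 256, 672, 913 and 122 in control joints. TLR3-MSC 5, MSC 2 and TLR3-MSC 2 were far above the other activated and MSC joints, and the pooled log2 fold change of -0.55 had an interval of -2.37 to 1.28.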

How the data were processed

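Bulk RNA sequencing of 20 knee joints was analysed. Per the submitters' processing notes and the methods, the authors aligned reads to GRCm39 with STAR 2.7.3a, counted them per gene with HTSeq and used DESeq2. The authors deposited a normalized signal, read counts divided by a size factor per library, and strand use is not stated. The deposited values were whole multiples of 1 read (tolerance 0.1 reads) for at least 99.8% of genes in every library, so reads were recovered for the count tests. Precision is limited by counting error for genes with few reads. Replicates are separate mice, and their pairing by number was not given. The lowest chi-square per gene between joints of a group was 24.1, and all joints were kept as separate samples.

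Groups followed the sample labels. The main fit was limma 3.58.1 with trend on log2(signal + 1), a pseudocount of 1, over all 20 joints and 4 groups, with Benjamini-Hochberg adjustment. The limit of 5 on the mean removed 0 genes, since the lowest mean was 9.4. Alternatives were quantile normalization, edgeR 4.0.16, DESeq2 1.42.0 (39 genes without an adjusted p), pseudocounts of 0.5 and 5, a minimum mean of 20, no filter, genes at 0 in any joint left out, the 15 MSC-injected joints alone, a replicate block and each joint left out. Single genes had an exact two-sided permutation test. The limma, edgeR and DESeq2 fits of activated against MSC joints were tested on simulated counts, with the same dispersion for every gene. The other alternatives and contrasts were not. The members and lists were chosen with earlier results of these data known. Named genes were those at the FDR limit (at most 20), the 6 higher and 6 lower genes with the smallest p among those past p and fold (higher genes at 0 in MSC 5 left out), the member with the smallest p of each list if at most 0.05, and Tlr3, Sting1, Cgas, Ifnb1, Cebpb, Cebpd, Mcl1, Fosb, Tnfaip6 and Tph1. Others were named after their values were seen. Motif shares are given over all promoters only, since 78.6% of the measured genes matched one. Of the gene identifiers, 14770 of 14793 were in the GRCm39 annotation used for overlaps.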

Additional observations from a re-analysis of the deposited data

Results flagged for a closer look

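Of 136 sets of 5 joints (34 named genes in 4 groups), 12 had 1 joint whose gap to its nearest neighbour exceeded the 95% limit of Dixon's test, where chance gives about 1 in 20. In MSC joints these were MSC 2 at 2531 normalized counts for Fosb and 2555 for Tnfaip6, and MSC 3 at 53.7 for Ciart. In TLR3-MSC joints they were TLR3-MSC 5 at 4816 for Fosl2 and 3712 for Tnfaip6, TLR3-MSC 3 at 48.3 for Mrgprb1 and TLR3-MSC 1 at 53.9 for Matn1. In STING-MSC joints they were STING-MSC 2 at 1651 for Plaur, its group's lowest, and 1421 for Mybph, STING-MSC 3 at 408 for Timd4 and STING-MSC 1 at 247 for Tph1. In control joints it was control 1 at 31.8 for Mrgprb1.

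The agonist groups differed from each other at an unadjusted limma p of at most 0.05 for 3 named genes, with an FDR of 0.89 for each. STING-MSC minus TLR3-MSC was 0.97 on the log2 scale for Gm6525 (95% interval 0.24 to 1.70, higher in 5 of 5 STING-MSC joints than every TLR3-MSC joint), 0.86 for Mybph (95% interval 0.084 to 1.63) and -2.25 for Tnfaip6 (95% interval -4.35 to -0.14).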

How the results depend on the processing

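Cebpb was judged here by an FDR of at most 0.05 and the other named genes by an unadjusted p of at most 0.05. Mcl1, judged by p, was past the FDR limit in edgeR and DESeq2 but not in the main limma fit. Of 34 named genes, 21 kept their direction and their side of the limit in every alternative that gave a value, and 3 turned sign, none of them past the limit: Tlr3 (-0.30 to 2e-04 with 1 joint left out, the latter without MSC 2, and 0.13 without MSC 2 and MSC 5), Cgas (-0.12, without MSC 5, to 0.19, and -0.24 without both) and Tnfaip6 (-0.97 to 0.302, the latter without MSC 2, and 0.57 without both). With 1 joint left out, the call at an unadjusted p of at most 0.05 ended for Egr2 (without MSC 2, 3 or 4, TLR3-MSC 1 or 4, or STING-MSC 2 or 5), Matn1 (MSC 2, 4 or 5, TLR3-MSC 1 or 4, or STING-MSC 1, 3 or 5), Wnt10b (MSC 1, 4 or 5, TLR3-MSC 3 or 5, or STING-MSC 1 or 2), Timd4 (MSC 2, 4 or 5), Mybph (MSC 1 or 3), Rplp2 (MSC 1 or 4) and Mrgprb1 (MSC 4). The 1 gene at the FDR limit became 2 with edgeR, 44 with DESeq2 (18 higher, 26 lower), 0 in the 15 MSC-injected joints alone, 7 without MSC 2 and MSC 5 (added after seeing the data), and 0 to 1 with 1 joint left out, with 0 without MSC 3, TLR3-MSC 1, 2 or 5, or STING-MSC 2. The 44 higher genes past p and fold became 12 (quantile), 17 (edgeR), 23 (DESeq2), 8 (pseudocount 5), 15 (minimum mean 20), 8 (genes at 0 left out) and 195 (without MSC 2 and MSC 5), and 26 to 102 with 1 joint left out, of which MSC 1 gave 76, MSC 2 102 and MSC 5 26. The 10 lower genes became 20, 23, 24, 5 and 6 in the first 5 of these, 23 without MSC 2 and MSC 5, and 6 to 23 with 1 joint left out, with 23 without MSC 1, 19 without MSC 3, 16 without MSC 5, TLR3-MSC 5 or STING-MSC 3 and 6 without STING-MSC 5. The 0 genes between STING-MSC and TLR3-MSC became 3 with DESeq2. The cause of these moves was not tested. Same-numbered joints did not deviate together, so the replicate block, which gave 1 gene at the FDR limit, 38 higher and 10 lower, pairs samples by number alone. Genes with few reads are limited by depth, and 5 MSC joints limit every contrast.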
